A study of Mus musculus with 217 samples.

Results

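Expression levels in the nucleus accumbens (NAc) were compared with those in the dorsomedial striatum (DMS) of the same mouse. An animal entered the comparison when a NAc and a DMS library carried the same animal label and time of day, which held for 63 of the 93 animals and 126 of the 217 libraries. The 11721 genes in the deposited tables of both regions were used. All mice were adult C57BL/6J, an inbred laboratory strain, about 10 weeks old and with no treatment or transgene named in the labels; 27 were female and 36 male. The light-dark cycle was 12 h of each, and tissue was collected at 6 times counted in hours from the start of the light phase (Zeitgeber time, ZT) that began with ZT2 and ended with ZT22, with 9 to 12 paired animals at each. RNA came from punches 1 mm wide taken on both sides of the brain, so each library holds every cell type of the punch, and fewer cells of a type cannot be told apart from less RNA per cell.

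Both regions consist mostly of medium spiny neurons, GABAergic projection neurons that receive cortical and thalamic glutamate input and midbrain dopamine. The NAc lies ventrally and is known for its part in reward and motivation, whereas the DMS is tied to goal-directed action. Gene expression in the striatum is known to be graded from ventromedial to dorsolateral, with Crym (mu-crystallin, a thyroid hormone binding protein) and Wfs1 (wolframin, a protein of the endoplasmic reticulum) on the ventral side and Cnr1 (the CB1 cannabinoid receptor) on the dorsolateral side.

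The DMS libraries held 35.7 M to 57.5 M reads over the listed genes (median 44.3 M), whereas no depth could be recovered for NAc. Each region's table was normalised on its own by the authors, so region and table cannot be told apart. Levels are therefore given on the log2 scale relative to the median gene of the same library ("centred level"), and a difference is the centred level in NAc minus that in DMS of the same animal. The DMS libraries fell into separate classes by the share of their normalised counts taken by the mitochondrial ribosomal RNAs mt-Rnr1 and mt-Rnr2: 34 animals had a low share in DMS (19.02% to 29.9%) and 29 a high share (35.9% to 47.9%). The median share in the NAc libraries of these animals was 34.7% and 34.9%. Single NAc libraries ranged from 22.7% to 47.9%. All 22 paired animals numbered 31 or higher were in the high class, against 7 of the 41 with lower numbers, so the class cannot be told apart from whatever the numbering followed.

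Toward NAc, 10 of 11 ventral markers, 4 of 19 neuropeptide genes and 3 of 7 serotonin receptors held the 1.5-fold call defined below. So did some peptide receptors and GABA-A receptor subunits, and 2.36% of all genes. By adjusted p alone, 9 of the 19 neuropeptide genes passed toward NAc and 6 toward DMS. The dorsal markers, 22 of 24 medium spiny neuron genes and all 15 oligodendrocyte markers passed toward DMS at an adjusted p under 0.05 (limma). So did 15 of 20 immediate early genes and 8 of 13 retinoid genes, beside 36.1% of all genes. For the NAc minus DMS level over all animals, 8163 of 11721 genes (69.6%) differed at an adjusted p of less than 0.05 (limma on the paired differences, Benjamini-Hochberg), 3926 of them (33.5%) higher in NAc and 4237 (36.1%) higher in DMS. Because most genes passed, a stricter rule was used to name genes: a mean difference of at least 1.5-fold that passed in all animals and, with the same sign, in the low and the high class alone. This "1.5-fold call" was met by 787 genes (6.71%), 277 higher in NAc (2.36%) and 510 higher in DMS (4.35%), and 713 of the 787 are annotated as protein coding. The balance of directions depended on the scaling: genes higher in NAc made up 48.1% of those passing after centring on the median, 14.2% with no centring, 33.45% with an equal sum and 56.1% with centring on the upper quartile. For the 1.5-fold call the share was 35.2% after centring and 10.6% with no centring, which lowers every difference by 0.19 on the log2 scale. Directions below are relative to the median gene.

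**Figure D1:**
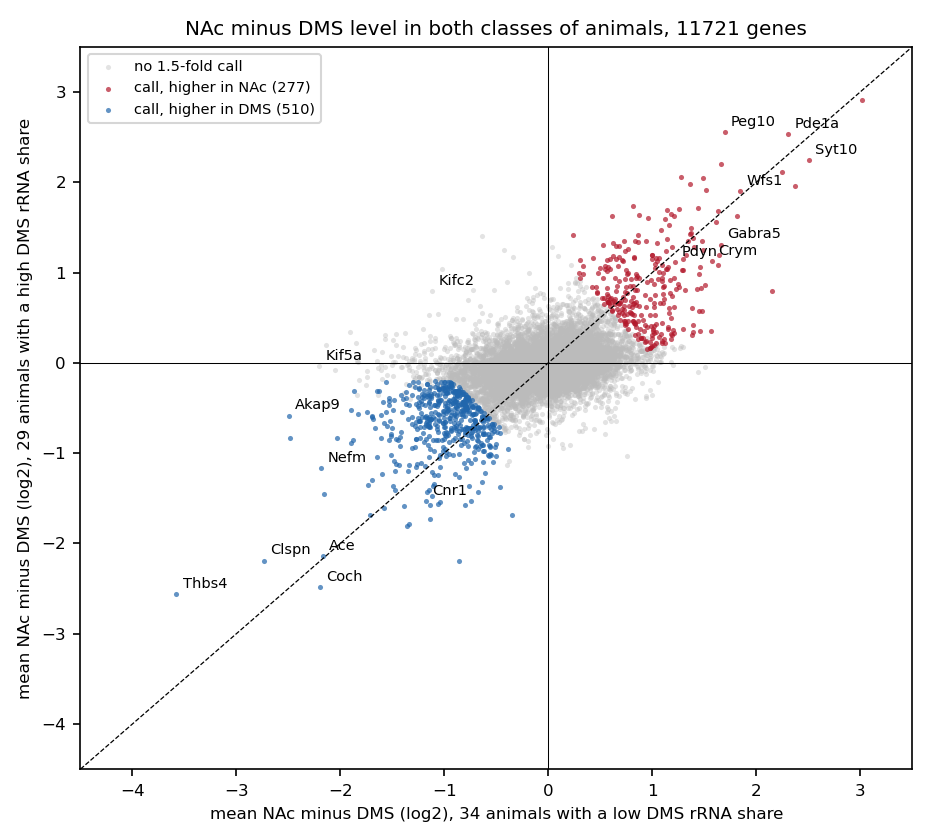
Each point is 1 of 11721 genes. The horizontal axis gives the mean difference NAc minus DMS (log2) over the 34 animals with a low mitochondrial rRNA share in DMS, and the vertical axis that over the 29 animals with a high share. Red and blue points hold the 1.5-fold call (277 higher in NAc, 510 higher in DMS), the dashed line marks equal values, and Kif5a and Kifc2 are examples that differ between the classes.

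The position markers checked the labels of the punches. Crym (chr7:120186380-120202111, minus strand, GRCm38) had centred levels of 2.18, 3.31 and 3.83 in NAc and 1.21, 1.91 and 2.61 in DMS (lowest, median and highest of 63 libraries each). The ranges overlapped, and NAc was the higher library in 62 of 63 animals. The mean difference was 1.37 ± 0.06 (SE, n = 63), or 2.58-fold (limma, adjusted p = 7.3e-33). Wfs1 (chr5:36966104-36989205) ran from 1.54 through a median of 3.38 to 4.35 in NAc and from 0.84 through 1.46 to 1.94 in DMS. It was higher in NAc in every animal, by 1.87 ± 0.07 on average (3.66-fold), although the lowest NAc libraries lay within the DMS range. Cnr1 (chr4:33924593-33948831) went the other way, with 1.07, 1.80 and 2.92 in NAc against 2.33, 3.19 and 3.85 in DMS. It was higher in DMS in all 63 animals, by 2.53-fold (mean difference -1.34 ± 0.06, limma, adjusted p = 4.4e-32).

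Of 16 ventral markers listed, 11 were measured in both tables, and 10 of them held the 1.5-fold call toward NAc, against 2.36% of all genes. Besides Crym and Wfs1 these included Peg10 (a retrotransposon-derived imprinted gene, difference 2.09), Baiap3 (a vesicle exocytosis protein, 1.91), Nts (neurotensin), Hap1 (huntingtin-associated protein, 1.40), Resp18 (0.91) and Nnat (neuronatin, 0.86). The exception was Npy1r, a neuropeptide Y receptor, with a difference of 0.01 ± 0.07 (limma, adjusted p = 0.87). The summed level of the 11 markers (linear scale, median gene = 1) was 26.9 to 73.3 in NAc and 12.0 to 21.7 in DMS, with no overlap. All 4 dorsal markers held the call toward DMS: Coch (cochlin, an extracellular matrix protein, -2.33), Cnr1, Reln (reelin, -0.74) and Gpr155 (-0.73). Both marker lists were chosen with earlier results of these data known, so their counts and sums are no independent support. In 47 animals that also had a library of the dorsolateral striatum (DLS), Cnr1 averaged 1.74, 3.13 and 4.53 in NAc, DMS and DLS, and Crym 3.18, 1.85 and 1.10, each region's library centred in its own table.

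**Figure D2:**
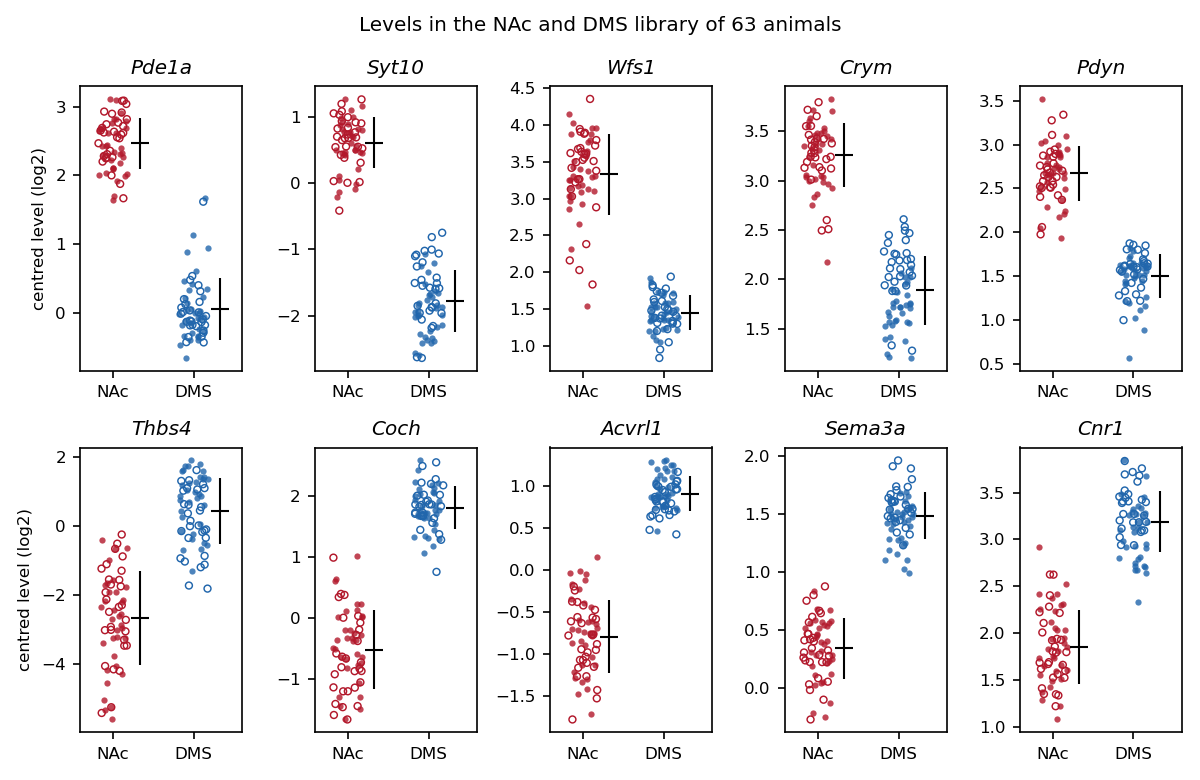
Centred levels (log2, library median gene = 0) of 10 genes in the NAc (red) and DMS (blue) library of 63 animals. Filled points are animals of the low and open points of the high DMS rRNA class, and the black bar and line give the mean and SD. Syt10, Pdyn, Acvrl1 and Sema3a show no overlap between regions, and for Pde1a the highest DMS library (1.67) lies just above the lowest NAc library (1.64).

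Among the 15 genes furthest toward NAc with a level above that of the median gene, Pde1a led. It encodes a calcium- and calmodulin-dependent phosphodiesterase that breaks down cyclic nucleotides (chr2:79834453-80129458). Its centred level was 1.64, 2.47 and 3.11 in NAc and -0.66, -0.05 and 1.67 in DMS (lowest, median, highest), so the ranges met only between 1.64 and 1.67. The mean difference was 2.41 ± 0.07, or 5.32-fold (limma, adjusted p = 3.1e-41), and all 63 animals showed it. Syt10 (synaptotagmin 10, a calcium sensor of vesicle release, chr15:89782393-89841860) lay between -0.42 and 1.27 in NAc, median 0.68, and between -2.64 and -0.75 in DMS, median -1.84. The regions did not overlap, and the difference was 2.39 ± 0.06 (5.24-fold). P2ry1, an ADP receptor (chr3:61002795-61008982), had medians of 0.67 in NAc and -1.63 in DMS and differed by 2.19 in the mean, with ranges that just touched (-0.70 to 1.13 and -2.62 to -0.67). Several of the next genes act on Ras or calcium: Rasal1 (a Ras GTPase-activating protein, 1.65), Rasgrf2 (a Ras exchange factor, 1.40) and Atp2b4 (a plasma membrane calcium pump, 1.47). Btbd3, which orients dendrites toward active axons in cortex, differed by 1.38 and Ipcef1 by 1.57. The rule also named Slc17a7, the vesicular glutamate transporter of cortical neurons, whose values are given with the cell type markers below.

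Toward DMS the largest difference was that of Thbs4 (thrombospondin 4, a secreted matrix glycoprotein of astrocytes, chr13:92751590-92794818). Its centred level was -5.60, -2.56 and -0.24 in NAc and -1.81, 0.62 and 1.91 in DMS, with a wide spread in both regions. The mean difference was -3.11 ± 0.21 (8.64-fold lower in NAc, limma, adjusted p = 1e-21), and 61 of 63 animals were higher in DMS. In the 47 animals with 3 regions Thbs4 averaged -2.68 in NAc, 0.25 in DMS and -2.10 in DLS, so DLS lay near NAc. Clspn (claspin, a replication checkpoint protein) differed by -2.48 and Coch by -2.33, both higher in DMS in every animal. Angiotensin-converting enzyme (Ace, -2.16) and neprilysin (Mme, -1.48) are peptidases of the cell surface. Ace ran from -2.83 to -0.21 in NAc and from -0.40 to 2.23 in DMS, with medians of -1.45 and 0.64. Acvrl1, a receptor of the TGF-beta family (chr15:101128522-101145336), had centred levels from -1.78 to 0.16 in NAc and from 0.43 to 1.31 in DMS. Its regions did not overlap and its means in the low and high class were close (-1.71 and -1.69). The transcription factor Onecut2 (-1.83), the neurofilament gene Nefm (-1.72), the integrin gene Itga9 (-1.51), Synpo2 (-1.60), Sgpp2 (-1.57), Nexn (-1.41), Sh3rf2 (-1.34) and the mitochondrially encoded ATP synthase subunit gene mt-Atp6 (-1.48) followed. Akap9, an anchoring protein for protein kinase A, also belonged to this group; it differed by -2.50 in the low class and by -0.58 in the high class.

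In all, 67 genes were higher in NAc in all 63 animals and 95 were higher in DMS in all 63. For 8 genes the lowest NAc library lay above the highest DMS library: Pdyn, Gnb4, Pnma2, Gabra5, A830018L16Rik, Gda, Syt10 and Cntnap5a. For 4 the lowest DMS library lay above the highest NAc library: Acvrl1, Zfp385b, Sema3a and Itga9. These 12 were singled out by their values. Pnma2 is the 1 gene among them without the 1.5-fold call, with a mean difference of 0.58.

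Medium spiny neuron genes were mostly higher in DMS. Of 24 listed, 22 passed toward DMS, 1 toward NAc and 1 did not pass, against 36.1% of all genes toward DMS; 12 held the 1.5-fold call, and the list's median difference was -0.58 beside -0.01 for all genes. Pde10a, the striatal phosphodiesterase of cAMP and cGMP, had centred levels of 4.29, 5.14 and 5.85 in NAc and 5.72, 6.34 and 6.69 in DMS. The ranges overlapped at their ends only, all 63 animals were higher in DMS, and the difference was -1.17 ± 0.05 (2.25-fold, limma, adjusted p = 7.3e-31). Rgs9, which speeds the shutoff of dopamine receptor signalling, differed by -0.99, Strn (striatin) by -0.99, Rasd2 (Rhes, a striatal GTPase) by -1.003, Foxp1 by -0.95, Bcl11b by -0.84 and Itpr1 (an IP3 receptor) by -0.91. The adenylyl cyclase gene Adcy5 differed by -0.64 and Ppp1r1b (DARPP-32) by -0.61. The list's median was -0.57 in the low and -0.56 in the high class. Oligodendrocyte markers, given below, were also higher in DMS, and their part in these differences was not tested. With their per-animal difference as a covariate Ppp1r1b was -0.95 and Adcy5 -1.03, read at a marker difference of 0, which lies at the edge of the data since 61 of 63 animals were below it.

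Genes of both output pathways passed more often toward DMS, 6 of 9 for the direct and 6 of 6 for the indirect pathway. The share over all genes was 36.1%. Between the DMS classes 3 of the 6 indirect-pathway and 1 of the 9 direct-pathway genes had opposite signs. In the low and the high class 4 and 5 indirect-pathway genes passed toward DMS. The indirect pathway, whose neurons carry the dopamine D2 receptor, is led here by Drd2, which ran from 0.30 through 1.32 to 2.13 in NAc and from 1.83 through 2.37 to 2.72 in DMS, and differed by -1.05 ± 0.06 with 62 of 63 animals higher in DMS. Adora2a, an adenosine receptor of these neurons, differed by -0.55 and Penk, the enkephalin precursor, by -0.14 (limma, adjusted p = 0.0099), with 0.04 in the low and -0.36 in the high class. Drd1, the D1 receptor of the direct pathway, differed by -0.36 and Chrm4 by -0.46, whereas Tac1, the substance P precursor of the same neurons, did not pass (0.02 ± 0.05, limma, adjusted p = 0.77). Ebf1, a transcription factor of direct-pathway neurons, held the call toward DMS (-0.72). Among genes of the striosomes, patches of striatum rich in mu opioid receptor, Oprm1 (0.78), Pdyn and Nnat held the call toward NAc and Kremen1 (-1.02) toward DMS. Gda, guanine deaminase, marks the surrounding matrix and differed by 0.90, with no overlap between regions (3.01 to 3.95 in NAc, 2.05 to 2.98 in DMS).

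Among 19 measured genes for neuropeptides and their processing, 9 passed toward NAc, 6 toward DMS and 4 did not pass, beside 33.5% and 36.1% of all genes toward NAc and DMS, and the median difference was 0.09. The 4 with the 1.5-fold call were all higher in NAc: Pdyn, Nts, Cck and Resp18. Pdyn encodes prodynorphin, the precursor of the kappa opioid peptides (chr2:129686565-129699844). Its centred level was 1.94, 2.68 and 3.52 in NAc and 0.56, 1.57 and 1.87 in DMS. Every NAc library lay above every DMS library, and the difference was 1.17 ± 0.05 (2.26-fold, limma, adjusted p = 2.1e-32). Nts encodes neurotensin, a peptide that modulates dopamine signalling (chr10:102481756-102490486), and had medians of -0.83 in NAc and -2.52 in DMS, with overlapping ranges (-3.51 to 0.86 and -3.62 to -0.89). Its difference of 1.44 ± 0.13 was seen in 59 of 63 animals. Cck, cholecystokinin, ran from -2.94 through -0.59 to 1.97 in NAc and from -3.77 through -1.95 to 1.23 in DMS; the mean difference of 1.38 ± 0.15 fell to 0.70 with the cortical neuron markers as a covariate. Resp18, a protein of secretory granules, differed by 0.91 ± 0.09.

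The promoters of these 4 genes are printed because the genes moved together toward NAc and because peptide genes are textbook targets of cAMP and calcium signalling. They are the 250 bases before the first RefSeq start listed for each gene (GRCm38.p6; 2 starts are listed for Pdyn; all 4 genes lie on the minus strand and are shown 5′ to 3′ on that strand). Capitals mark matches on either strand to the cAMP response element with any middle base (TGACNTCA), its shorter core (TGACG), the AP-1 site (TGANTCA) or the TATA box (TATAAA); the full element TGACGTCA is contained in TGACNTCA and contains the core.
Pdyn, chr2:129699939-129700188: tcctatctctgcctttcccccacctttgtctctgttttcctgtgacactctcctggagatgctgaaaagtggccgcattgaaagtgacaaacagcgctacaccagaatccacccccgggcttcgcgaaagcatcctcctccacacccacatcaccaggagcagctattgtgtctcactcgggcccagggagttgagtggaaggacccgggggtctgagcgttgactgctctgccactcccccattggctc
Nts, chr10:102490419-102490668: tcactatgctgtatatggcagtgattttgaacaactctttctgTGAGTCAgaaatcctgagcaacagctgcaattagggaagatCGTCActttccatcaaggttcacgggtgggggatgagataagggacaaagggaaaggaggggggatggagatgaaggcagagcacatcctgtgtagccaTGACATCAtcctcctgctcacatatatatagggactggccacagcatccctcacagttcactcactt
Cck, chr9:121495695-121495944: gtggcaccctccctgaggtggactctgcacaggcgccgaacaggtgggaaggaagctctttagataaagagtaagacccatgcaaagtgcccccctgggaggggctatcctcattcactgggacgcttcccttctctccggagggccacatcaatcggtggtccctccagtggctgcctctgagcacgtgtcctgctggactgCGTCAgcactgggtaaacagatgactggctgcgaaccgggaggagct
Resp18, chr1:75278416-75278665: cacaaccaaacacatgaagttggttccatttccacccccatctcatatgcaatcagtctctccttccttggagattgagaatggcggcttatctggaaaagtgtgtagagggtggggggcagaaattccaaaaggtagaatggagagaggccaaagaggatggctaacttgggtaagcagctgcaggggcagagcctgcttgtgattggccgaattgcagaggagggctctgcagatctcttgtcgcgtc

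The Nts window held 1 match to TGACNTCA, starting at base -67 from the transcription start, 1 to the AP-1 site at base -207 and 1 to the core at base -166. The Cck window held 1 core match at base -47, and the Pdyn and Resp18 windows held none of these motifs. Over the same 250 bases, TGACNTCA was present in 5.97% of the 8950 tested genes with a listed promoter, in 4.97% of those called toward NAc and in 5.11% of those called toward DMS. The AP-1 site stood in 3.64%, 3.87% and 2.27% of these promoters and the core in 28.4%, 17.7% and 18.2%. TATAAA was found in 5.61%, 8.29% and 7.39%, and the full element in 3.05%, 2.21% and 1.99%. These matches describe letters in a window and show no binding.

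Peptide receptors were divided between the regions. Of 18 measured, 8 passed toward NAc and 5 toward DMS (beside 33.5% and 36.1% of all genes), and 7 held the 1.5-fold call. Toward NAc these included Cckbr, the brain cholecystokinin receptor (1.07), Oprl1, the nociceptin receptor (0.86), and Oprm1, the mu opioid receptor (0.78, or 0.45 with the oligodendrocyte markers as a covariate). Toward DMS they were Oprd1, the delta opioid receptor (-0.88), and the tachykinin receptors Tacr1 (-0.80) and Tacr3 (-0.78). Opioid receptors thus had members on both sides. Oprm1 ran from -1.58 through -0.76 to 0.01 in NAc and from -2.56 through -1.54 to -0.82 in DMS, and Oprd1 from -2.89 through -1.47 to -0.56 in NAc and from -1.48 through -0.66 to 0.07 in DMS. In both cases the ranges overlapped, and 60 animals were higher in NAc for Oprm1 and 59 higher in DMS for Oprd1.

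Over all animals 3 of 7 measured serotonin receptors passed toward NAc, all with the call, and 0 toward DMS. The shares over all genes were 33.5% passing toward NAc and 2.36% with the call. In the low class alone 1 of the 7 passed toward DMS, and 3 of 7 had opposite signs in the classes. Htr2c, a receptor coupled to phospholipase C (chrX:146962513-147197277), ran from 1.91 through 2.38 to 2.81 in NAc and from 0.89 through 1.59 to 2.08 in DMS and was higher in NAc in all 63 animals, by 0.89 ± 0.05. Htr4, which raises cAMP, differed by 0.98 and Htr2a by 0.76 (0.42 with the oligodendrocyte markers as a covariate and 0.37 in the animals numbered 31 or higher). Of the endocannabinoid genes, Cnr1 and Dagla, which makes the ligand 2-arachidonoylglycerol, were called toward DMS (Dagla -0.70), whereas Cnrip1, a protein that binds the CB1 receptor, was called toward NAc (0.66). The ligand-degrading enzyme gene Mgll did not pass (0.07 ± 0.05, limma, adjusted p = 0.23). In the cAMP list of 25 measured genes, 7 passed toward NAc and 12 toward DMS, beside 33.5% and 36.1% of all genes; besides Pde1a, Pde10a and Adcy5, the call was held by Adcy8 (0.59) and Pde8a (-0.60). With the oligodendrocyte markers as a covariate Pde8a was -0.16 (limma, adjusted p = 0.14) and Adcy8 0.98. Among 14 measured RGS proteins, which shorten G protein signals, Rgs10 (0.77) and Rgs12 (0.62) were called toward NAc and Rgs9 and Rgs4 (-0.79) toward DMS.

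Ion channel receptors differed by subunit. Gabra5, the alpha5 subunit of extrasynaptic GABA-A receptors (chr7:57407672-57510059), had centred levels of 0.33, 0.86 and 1.36 in NAc and -1.33, -0.65 and 0.10 in DMS. The regions did not overlap and the difference was 1.501 ± 0.05 (2.83-fold, limma, adjusted p = 1.5e-37). Gabrg1 (1.21) and Gabra3 (0.62) were also called toward NAc, and no GABA receptor gene was called toward DMS. Of 14 measured GABA receptor genes, 6 passed toward NAc, 1 toward DMS and 7 did not pass, beside 33.5% and 36.1% of all genes. The list's median was 0.03 (0.16 in the low and 0.02 in the high class), and 7 of 14 had opposite signs. In the low class 8 passed toward NAc and 3 toward DMS, and in the high class 6 and 3. Among 22 glutamate receptor genes, 4 passed toward NAc and 10 toward DMS (beside 33.5% and 36.1% of all genes), and the median difference was -0.03. The kainate receptor subunit Grik4 (0.98) and the NMDA receptor subunit Grin3a (0.86) were called toward NAc, and genes called toward DMS included Grm8 (-0.71) and Grin2a (-0.63). Grm8 was -0.15 with the oligodendrocyte markers as a covariate (limma, adjusted p = 0.44), and Grin2a -0.30 in the animals numbered 31 or higher.

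Genes listed under potassium, sodium and calcium channels, which include auxiliary subunits and are not all voltage-gated, passed mostly toward DMS. Potassium channel genes passed toward DMS in 26 of 46 cases and toward NAc in 9, and sodium and calcium channel genes in 24 and 7 of 33, beside 36.1% and 33.5% of all genes. Large differences toward NAc included those of Kcnc2 (a fast delayed rectifier subunit, 1.40), Scn9a (1.12) and Kcnip1 (0.87). Toward DMS the largest on these lists were those of Scn4b (a sodium channel beta subunit, -1.05), Cacng2 (-1.03), Kcnh4 (-0.96) and Cacng4 (-0.94). Scn4b was higher in DMS in all 63 animals, with centred levels of 2.97 to 4.86 in NAc and 4.27 to 5.53 in DMS. Cacng2 differed by -1.64 in the low and by -0.31 in the high class. The median of the potassium channel list was -0.34 and -0.08 in these classes.

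Axon guidance and adhesion genes had members far out on either side. Sema3a, a secreted repellent (chr5:13125414-13602565), ran from -0.27 through 0.34 to 0.88 in NAc and from 1.00 through 1.502 to 1.96 in DMS. The regions did not overlap, and the difference was -1.14 ± 0.04 (2.21-fold, limma, adjusted p = 9.6e-37). Nrp2, a co-receptor of class 3 semaphorins (chr1:62703285-62818695), went the other way, from -2.49 through 0.03 to 1.64 in NAc and from -2.72 through -1.82 to -0.81 in DMS, with a difference of 1.75 ± 0.10 and 62 of 63 animals higher in NAc. The netrin receptor gene Unc5d (1.22) and the semaphorin receptor gene Plxnc1 (0.91) were called toward NAc, and Sema7a (-0.87) and Plxnd1 (-0.86) toward DMS. Of 42 measured guidance genes, 12 passed toward NAc and 19 toward DMS, beside 33.5% and 36.1% of all genes. This balance depended on the DMS class. In the low class 10 passed toward NAc and 24 toward DMS, and in the high class 17 and 13. The list's median was -0.29 in the low and 0.09 in the high class, and 14 of 42 had opposite signs. Epha5 (0.78) was called toward NAc and Ephb1 (-0.67) and Efna5 (-0.66) toward DMS; Efna5 was -0.39 with the oligodendrocyte markers as a covariate (limma, adjusted p = 0.099). Cadherins, calcium-dependent adhesion proteins, passed toward NAc in 14 and toward DMS in 9 of 25 cases, beside 33.5% and 36.1% of all genes. Pcdh19 (1.35), Cdh4 (1.24), Pcdh18 (1.09) and Cdh7 (0.99) were called toward NAc, and Cdh12 (-0.98) and Cdh8 (-0.91) toward DMS.

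Forebrain transcription factors passed toward DMS in 35 and toward NAc in 7 of 53 measured cases, beside 36.1% and 33.5% of all genes. There were 10 calls toward DMS and 0 toward NAc, beside 4.35% and 2.36% of all genes. The list's median was -0.47 in the low and -0.17 in the high class, and 17 of 53 had opposite signs. After Onecut2 the largest differences were those of Foxp1, Ikzf1 (-0.93), Bcl11b and Pou3f3 (-0.81). Retinoic acid genes included Rxrg, the retinoid receptor of striatal neurons, with medians of 1.78 in NAc and 2.85 in DMS and a difference of -1.09 ± 0.05. Stra6, a cellular importer of retinol (-0.93), and Rlbp1, a retinal-binding protein (-0.82), were also called toward DMS. Of 13 measured retinoid genes, 8 passed toward DMS and 2 toward NAc, beside the same 36.1% and 33.5% of all genes.

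Immediate early genes, which are induced within minutes by neuronal activity, passed toward DMS in 15 of 20 cases and toward NAc in 0 over all animals. The shares over all genes were 36.1% and 33.5%. In the high class alone 10 passed toward DMS and 2 toward NAc, and 6 of 20 had opposite signs in the classes. Egr2 had medians of -1.96 in NAc and -0.52 in DMS (difference -1.43 ± 0.13), with wide ranges of -3.70 to -0.12 and -3.60 to 1.33. Arc, which acts on glutamate receptor turnover, differed by -1.09, Egr1 by -0.99, Egr4 by -0.92, Nr4a1 by -0.82 and Dusp6, a phosphatase of ERK, by -0.63. The size depended on the DMS class: the list's median was -0.66 in the low and -0.26 in the high class, and Nr4a1 did not pass in the animals numbered 31 or higher (-0.02, limma, adjusted p = 0.90). Core clock genes showed small differences, with 11 of 13 passing toward DMS and none with the call. Nr1d1 (REV-ERB alpha) differed by -0.43, Per1 by -0.36, Per2 by -0.34 and Clock by -0.25, and the list's median of -0.25 compares with -0.01 for all genes.

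**Figure D3:**
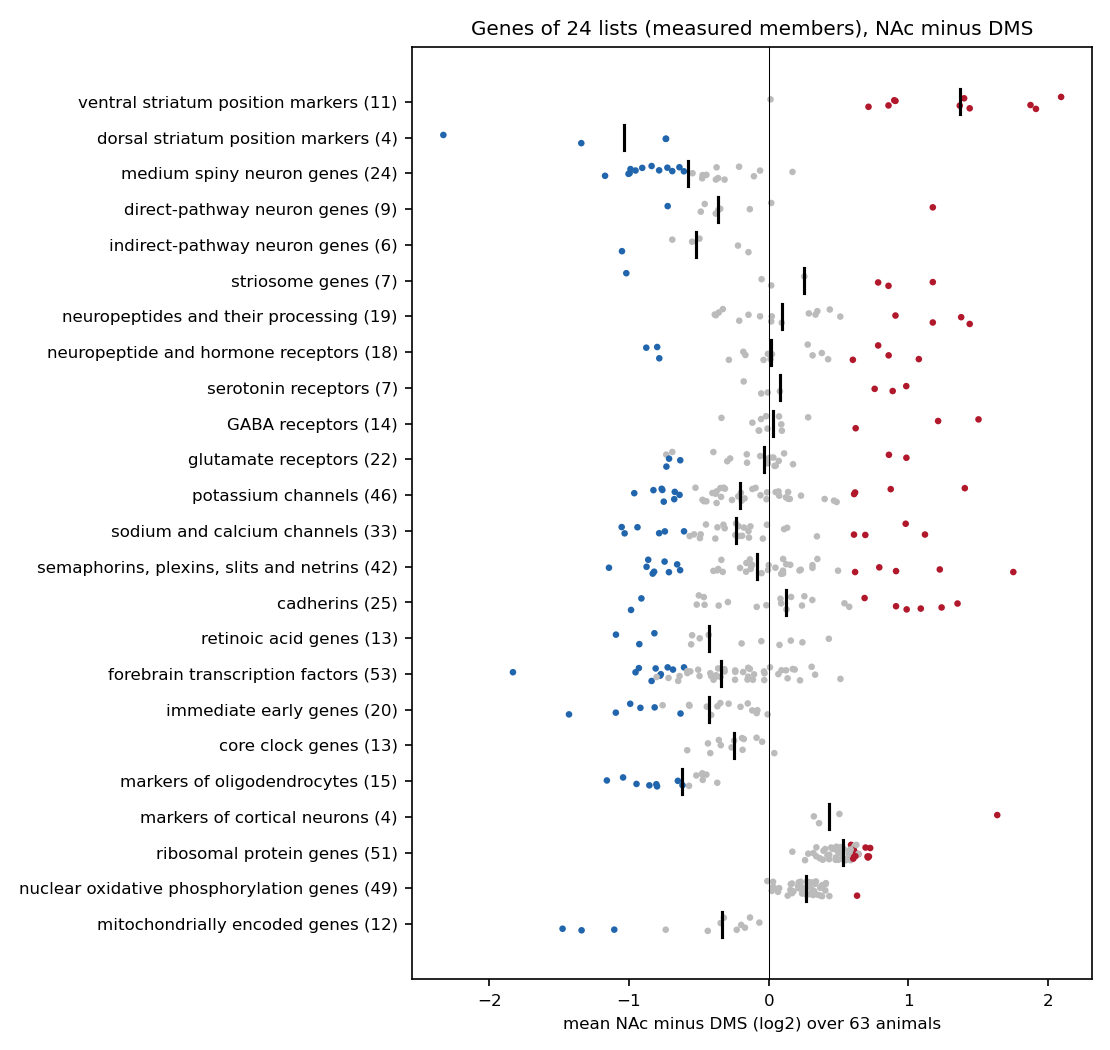
Mean difference NAc minus DMS (log2, 63 animals) of each measured gene of 24 lists, with the number measured in brackets. Red and blue points hold the 1.5-fold call toward NAc and DMS, grey points do not, and black bars are list medians, from 1.37 for ventral markers to -1.04 for dorsal markers.

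Markers of some other cell types also differed between the regions. All 15 oligodendrocyte markers passed toward DMS, 8 of them with the call, with a median difference of -0.62 (-0.54 in the low and -0.63 in the high class). Their summed level was 58.7 to 213 in NAc and 157 to 318 in DMS, and 62 of 63 animals were higher in DMS. The myelin genes Mobp (-1.16) and Mbp (-0.85) were among them, and Mbp ran from 3.94 through 5.26 to 5.98 in NAc and from 5.65 through 6.11 to 6.69 in DMS. The 7 measured markers of subventricular zone progenitors and neuroblasts, cells of the wall of the lateral ventricle, summed to 1.90 to 10.1 in NAc and 2.18 to 19.4 in DMS, and 45 animals were higher in DMS. Top2a, a marker of dividing cells, differed by -1.72 ± 0.23, by -2.48 in the low and by -0.83 in the high class. Gfap, a filament protein of astrocytes and ventricular stem cells, differed by -1.19, by -0.05 with the oligodendrocyte markers as a covariate (limma, adjusted p = 0.87) and by -0.62 with the subventricular markers. The astrocyte list as a whole had 7 of 14 markers passing toward DMS and 1 toward NAc, beside 36.1% and 33.5% of all genes. Its direction depended on the DMS class, with medians of 0.05 in the low and -0.26 in the high class. Opposite signs were seen for 7 of the 14. In the low class 5 passed toward DMS and 3 toward NAc, and in the high class 10 and 0. With the subventricular markers, of which Top2a is 1, as a covariate the difference of Thbs4 was -2.05 and that of Top2a -0.33. With the oligodendrocyte markers these were -2.07 and -0.78, the latter with an adjusted p of 0.20 (limma).

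Cortical neuron markers were higher in NAc over all animals. Only 4 of 10 listed were measured in both tables, and the 6 not measured include the defining genes Tbr1, Neurod6 and Emx1. All 4 passed toward NAc, beside 33.5% of all genes, and only Slc17a7 held the call. In the low class 2 passed and in the high class 4, and 1 had opposite signs. The medians of the 4 measured markers were 0.40 and 0.89 in these classes. Their summed level was 2.55 to 27.5 in NAc and 2.15 to 12.9 in DMS, and 53 of 63 animals were higher in NAc. Slc17a7 ran from -3.98 through 1.38 to 4.61 in NAc and from -3.87 through -0.80 to 3.12 in DMS. It had the widest spread of the 15 genes furthest toward NAc (SD of the difference 2.23), 47 of 63 animals were higher in NAc, and its mean difference of 1.64 ± 0.27 fell to 0.03 with the cortical markers, of which it is 1, as a covariate. With that covariate Pde1a differed by 2.22, Syt10 by 2.44, Crym by 1.51 and Wfs1 by 1.98. Markers of cholinergic neurons passed toward DMS in 4 of 5 cases without the call, and Chat differed by -1.39 in the low and by -0.33 in the high class. Microglial markers, with 5 of 15 passing toward NAc and 1 toward DMS, and endothelial and mural markers, with 2 and 8 of 15, had no call. Over all genes, 33.5% passed toward NAc and 36.1% toward DMS. The microglial median was 0.33 in the low and -0.11 in the high class, and 10 of 15 had opposite signs. For endothelial and mural markers these medians were 0.004 and -0.37, and 8 of 15 had opposite signs.

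The DMS class changed the size of many differences. A class term passed in 6714 genes (57.3%), and 926 genes passed in both classes with opposite sign. Ribosomal protein genes, whose products form the cytosolic ribosome, passed toward NAc in 51 of 51 cases over all animals, but their median difference was 0.88 in the low and 0.11 in the high class, where 19 passed. By animal, the median over these genes was 0.05 to 1.78 in the low class, above 0 in 34 of 34 animals, and -0.51 to 0.89 in the high class, above 0 in 19 of 29. The low-class animals with the lowest and the highest value had rRNA shares of 24.7% and 44.7% in NAc. Whether the NAc share goes with these values was not tested. Nuclear genes for oxidative phosphorylation passed toward NAc in 42 of 49 cases over all animals; 46 passed toward NAc in the low class, and 5 toward NAc and 3 toward DMS in the high class, with medians of 0.46 and 0.01. Genes of the mitochondrial genome went toward DMS in 9 of 12 cases, with medians of -0.12 and -0.74. The ventral markers had medians of 1.18 and 1.14 and the dorsal markers of -0.96 and -1.24 in these classes. Red blood cell genes changed sign, with medians of 0.65 and -0.50, and so did the interneuron peptide gene Sst, with -0.42 and 1.25. Depth, RNA quality and the day of handling were not tested as sources of the class.

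**Figure D4:**
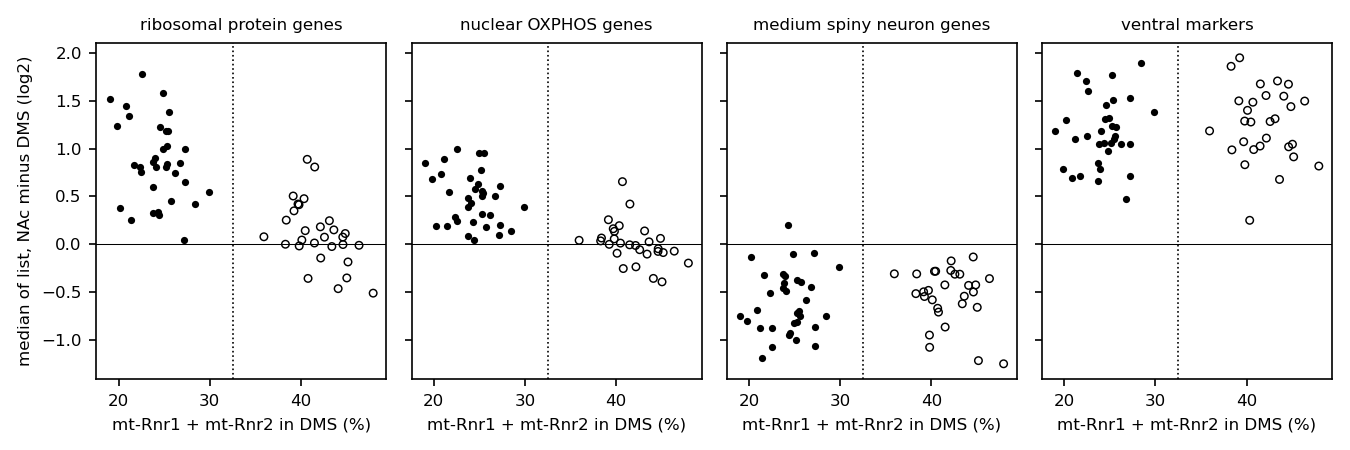
Median difference NAc minus DMS (log2) over the genes of 4 lists, 1 point per animal, against the share of mt-Rnr1 and mt-Rnr2 in the DMS library (%). Filled points are the 34 low-class and open points the 29 high-class animals, with a dotted line between the classes. Ribosomal protein genes lie above 0 in 34 of 34 animals below the line and in 19 of 29 above it, while ventral markers lie above 0 in all 63.

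Time of day did not change the difference detectably for any gene. In a model with time, sex and DMS class, 0 of 11721 genes (0%) passed for time (limma F test, smallest adjusted p = 0.39), and 830 had an unadjusted p of less than 0.05. The smallest p values were those of Il1rapl2, Btg2, Papln, Ctss and Fosl2. Of the 787 genes with the 1.5-fold call, 785 had the same sign at all 6 times. The call was made on the mean of these same animals, so this agreement is largely built in. For Crym the mean difference at ZT2, ZT6, ZT10, ZT14, ZT18 and ZT22 was 1.56, 1.36, 1.07, 1.39, 1.45 and 1.33, and for Cnr1 it was -1.51, -1.21, -1.26, -1.34, -1.47 and -1.24. Thbs4 had the widest range of fitted time means among the 787 (1.77), with an adjusted p of 0.79 (limma).

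Sex likewise gave 0 genes (0%) at an adjusted p of less than 0.05 (limma, smallest adjusted p = 0.20), with 1055 at an unadjusted p of less than 0.05. With the mitochondrial rRNA shares of both libraries in place of the DMS class, 108 genes passed, 79 with a larger and 29 with a smaller difference in males. All 787 genes with the call had the same sign in females and males, which a call made on these same animals largely fixed in advance. Crym differed by 1.42 in females and 1.33 in males, Cnr1 by -1.45 and -1.26, and Drd2 by -1.04 and -1.06. The largest gap among the 5 genes with the smallest p was that of the activity-dependent transcription factor Npas4, with -0.10 in females and -0.92 in males (limma, adjusted p = 0.20).

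**Figure D5:**
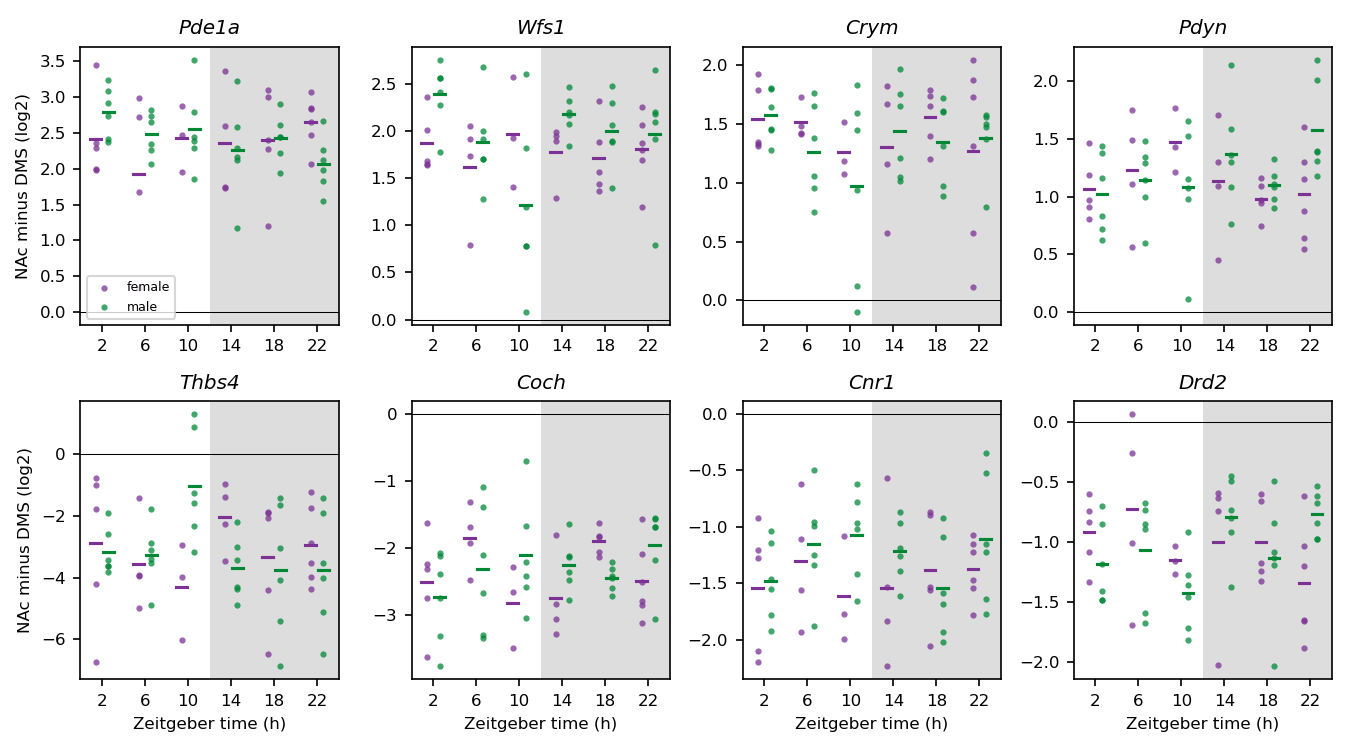
Difference NAc minus DMS (log2) of 8 genes by Zeitgeber time (h), 1 point per animal, with females in purple and males in green; short bars are means and the grey area is the dark phase. Wfs1, Pde1a and Pdyn lie above 0 and Cnr1 and Coch below 0 in every animal.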

How the data were processed

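Total RNA of tissue punches was sequenced as stranded paired-end libraries of 75 bp reads with 40 M reads targeted, per the labels' protocols. HISAT2 2.1.0 and HTSeq 0.10.0 are named in the submitters' processing notes; the notes list a human build while the series' design text names GRCm38, and whether counting used strand is not given in the sources used here, so reads of overlapping or antisense genes and of near-identical copies are uncertain. The deposited values are log2 normalised counts that the authors made for each region separately. The DMS values fall on whole-read steps (tolerance 0.01), and the NAc values carry a further adjustment that the sources used here do not describe, with 9 values below 0.

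Of 11867 NAc and 12101 DMS genes, 11721 are shared, and 11697 of these had a symbol and coordinates (GRCm38). Each library was centred on its median over the shared genes, which removed a mean shift of -0.19. limma 3.58.1 in R 4.3.3 was fitted to the differences within animals, with a variance trend on mean level and Benjamini-Hochberg adjustment over all shared genes. Time, sex and DMS class were terms of a second model. The pairing comes from the animal label; deviations of the paired libraries from their group means correlated with a median of 0.056 and a minimum of -0.317 over 58 animals. No library pair looked like a duplicate (highest correlation 0.9886 in NAc and 0.9936 in DMS). On simulated data with 11721 genes, 100 of 100 genes changed by 1.5-fold and 74 of 100 changed by 1.19-fold were recovered, with 5 unchanged genes called. P values measure the spread between animals. The count tests meant for raw counts were not used.

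Named genes were the 15 highest and 15 lowest differences with the 1.5-fold call, a symbol that is no clone name and a centred level above 0 in the higher region, up to 6 called members of each list, list members given as not passing, Crym, Wfs1 and Cnr1, and the 5 genes with the smallest p for time, sex and class. Genes outside this rule are said to be so or are given as examples chosen after their values were seen (Chat, Sst, Drd1, Chrm4, Adora2a, Penk and the clock genes). The members and lists were chosen with earlier results of these data known. Libraries without a partner (14 NAc, 7 DMS) entered 1 alternative only. Some genes that the rule names are not reported here.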

Additional observations from a re-analysis of the deposited data

Results flagged for a closer look

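The difference between NAc and DMS depended on the DMS class, tested as a term in limma with time and sex: 6714 genes passed, and 926 genes passed in both classes with opposite directions. The 5 genes with the smallest p for this term were Kif5a, Kifc2, Dst, Zfp644 and Tspyl1. For Kif5a, a kinesin motor of neurons, the high class minus the low class was 2.28, with differences of -2.20 in the low and -0.04 in the high class. Kifc2, another kinesin, gave 2.05 and changed from -1.12 to 0.80. Dst, the cytoskeletal linker dystonin, gave 2.01 and changed from -1.68 to 0.15. Zfp644, a zinc finger protein, gave -0.74, and Tspyl1 gave -0.53. What sets the DMS classes apart was not tested.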

How the results depend on the processing

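The count of 8163 genes past the threshold for the NAc minus DMS level fell to 5374 with the oligodendrocyte markers as a covariate, 5182 in the high-class animals and 4340 in the animals numbered 31 or higher; the last pair holds fewer animals. Its other alternatives gave 6373 to 8947 genes. The 787 genes with the 1.5-fold call became 1389 with no centring, which lowers every difference. The oligodendrocyte covariate gave 677 calls, of which 395 were among the 787, and the cortical covariate 839, of which 674 were. These marker covariates were chosen after seeing the data. Each covariate fit, here and above, is read at a marker difference of 0. Of the 63 animals, 61 lay below 0 for the oligodendrocyte, 49 for the subventricular and 12 for the cortical markers. The oligodendrocyte fit is thus read at the edge of the data. Without the replicate block, which ignores the pairing by animal, 8059 genes passed (8338 with all libraries). Time of day gave 0 genes under all 7 alternatives run. Sex gave 108 genes with the mitochondrial rRNA shares in place of the class and 0 under the other 6. Of the 140 named genes that hold the call, none changed direction under any alternative run. The call requires the same sign in each DMS class, so the runs on those classes could not reverse it. The other runs share its animals. The genes named for time, sex or class were not among the 140. With the oligodendrocyte covariate 9 of the 140 no longer had an adjusted p of less than 0.05 (limma), whatever their size. They were Cd24a, Efna5, Gfap (-0.05), Gjb1, Grm8, Pde8a, Sox10, Top2a and Trf, of which Gjb1 and Trf are themselves among the covariate's markers. In the animals numbered 31 or higher Nr4a1, Rplp1, Rps16 and Top2a did not pass, and with the cortical covariate Slc17a7 did not (0.03). Others still passed at a smaller size, such as Arc (-0.26) and Cacng2 (-0.36) in the animals numbered 31 or higher. List medians between 0 and 0.19, such as those of neuropeptides, GABA receptors, cadherins and microglia, fall below 0 with no centring. Without a depth for NAc, the precision of low genes there cannot be given.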

Other observations

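Genes of the X chromosome held the 1.5-fold call toward NAc in 24 of 430 tested cases (5.58%), beside 2.36% of all genes, and toward DMS in 12 (2.79%). This chromosome was singled out after all chromosomes had been counted, and no test was made. Gpr101, an orphan G protein-coupled receptor gene, differed by 2.97 ± 0.12, by 2.89 in females and 3.03 in males. Trpc5, a cation channel gene, differed by 1.33, Pnck, a calmodulin-dependent kinase gene, by 1.23, and the glycine receptor subunit gene Glra2 by 1.07. The median difference of the X-linked genes was 0.08, which falls below 0 with no centring.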
